A study of Mus musculus and Bos taurus with 6 samples.

Results

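The 3p arms of the let-7 precursors were followed in small RNA libraries of lactating mammary gland. Members were the listed 3p arms of let-7a-1, b, c-1, c-2, d, e, f-1, f-2, g and i whose line carries a mouse or bovine prefix. All 10 were listed in mouse, among 1750 lines, and 3 in bovine, among 1539 lines, which made 11 of 3243 distinct lines over both lists. In bovine, 6 further arms of the same precursors were listed under the name of another species (let-7b, c, d, e, f-1 and f-2), and they are given beside the members. mmu-let-7a-1-3p and mmu-let-7c-2-3p have the same sequence and the same counts on both lines, so that 10 names stand for 9 sequences. mmu-let-7a-2-3p was not analysed here. Apart from the list of sequences, names are given without the prefix mmu-.

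The mouse miRNome came from whole mammary glands of 2 FVB/N mice at day 12 of lactation (mouse samples 1 and 2). The AGO2-miRNome came from glands of the same strain and day after immunoprecipitation with a monoclonal antibody against Argonaute 2 (AGO2 samples 1 and 2), and the labels do not say which mouse each AGO2 sample came from. The study took left and right glands of 2 mice, so mouse and AGO2 samples may share animals, while the tests treat them as independent. The bovine miRNome came from mammary biopsies of 4 Holstein cows at mid-lactation on a low forage diet, pooled by pairs into 2 libraries (bovine samples 1 and 2). The labels give no transgene or drug treatment for any group. Bovine RNA was isolated with another kit than mouse RNA. Per the paper the mice were primiparous and the cows multiparous, and glands were collected in mouse but udder biopsies in cows. Species, kit, pooling, parity, tissue sampling and diet therefore cannot be told apart. Each group held 2 libraries, so that a permutation p cannot fall below 0.333 and a p-value measures only the spread between these libraries.

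A miRNA precursor is a hairpin, and Dicer cuts from it a duplex made of a 5p and a 3p strand. A single strand is normally kept in an Argonaute protein, where its seed (bases 2 to 8) pairs with target mRNA; the other, called the passenger or star strand, is normally released and degraded. In let-7 hairpins the usual guide is the 5p arm. The let-7 family restrains proliferation and favours differentiated states, with Hmga2 and Ras genes among its known targets, and Lin28 proteins block its maturation. AGO2 is an Argonaute protein that can cleave its targets.

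The 3p arms do not share the guide's seed, and they differ in seed among themselves. The mature sequences of all 10 members in RefSeq (GRCm38.p6) matched the deposited ones. Of these, 9 are shown with let-7d-5p, because the arms differ from the guide, and from each other, in the bases that choose targets. The seed is in capitals, and let-7c-1-3p, which had the lowest mean level in mouse, is not printed.
mmu-let-7d-3p: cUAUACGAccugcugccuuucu
mmu-let-7a-1-3p and mmu-let-7c-2-3p: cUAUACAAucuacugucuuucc
mmu-let-7b-3p: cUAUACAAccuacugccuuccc
mmu-let-7f-1-3p: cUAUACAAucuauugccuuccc
mmu-let-7e-3p: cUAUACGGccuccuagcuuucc
mmu-let-7f-2-3p: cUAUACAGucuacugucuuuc
mmu-let-7i-3p: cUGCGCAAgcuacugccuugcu
mmu-let-7g-3p: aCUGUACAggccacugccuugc
mmu-let-7d-5p: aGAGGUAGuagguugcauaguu

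let-7a-1, let-7b, let-7c-2 and let-7f-1-3p shared the seed UAUACAA, which miR-98-3p also carries, and the other 6 members had a seed of their own in the family, 7 seeds in all. let-7d-3p was the only known mouse line with the seed UAUACGA. The 5′ ends were alike: 9 of 10 members began with C and 7 of 10 with CUAUAC, and 9 of 10 were 22 nt long. Of the 8 distinct 5p arms, 7 began with U. The GC content of the members ran from 36.4% to 59.1%. The sequences of let-7f-2-3p and let-7a-1-3p differed only by A8G (let-7a-1-3p first, counted from the 5′ end) over their shared length, so that reads with 1 mismatch could be shared between these lines. let-7d-3p had at least 4 mismatches to any other known mouse line.

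The members come from 7 chromosomes (GRCm38.p6). let-7d-3p (chr13:48536024-48536045), let-7f-1-3p (chr13:48537833-48537854) and let-7a-1-3p (chr13:48538188-48538209) lie on the minus strand in exons of the lincRNA 6720427I07Rik. let-7c-2-3p (chr15:85706664-85706685) and let-7b-3p (chr15:85707379-85707400) lie on the plus strand in exons of Lncppara. The others lie in introns of Mir99ahg (let-7c-1, chr16), Spaca6 (let-7e, chr17), Huwe1 (let-7f-2, chrX) and Wdr82 (let-7g, chr9), or in an exon of D630033A02Rik (let-7i, chr10).

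The summed read count ran from 8391916 to 9299807 in mouse, from 3909166 to 5041406 in AGO2 and from 9402483 to 10613807 in bovine. Levels are given as RPM (reads per 1000000 counted reads), and a count of 0 allows up to 3 counts, or 0.283 to 0.767 RPM. These limits and the intervals below cover counting error only, since reads carry no molecular identifiers. RPM are shares of the counted reads of a library and not absolute amounts. The paper reports that a high percentage of the AGO2 reads was eliminated in cleaning and sizing. It also proposes that less total RNA in the immunoprecipitates could explain some differences between the lists of miRNA. The part of either in the results on let-7 was not tested. The miRNA of mammary epithelium (6 markers, all counted in each library) summed to 159803 and 188746 RPM in mouse, 338037 and 368284 RPM in AGO2, and 77607 and 79458 RPM in bovine. These markers did not move together in AGO2 over mouse (edgeR). At an adjusted p below 0.05, miR-200a-3p (log2 fold change 1.58) and miR-141-3p (1.34) were higher, and miR-200b-3p (−1.43) and miR-200c-3p (−1.71) were lower. miR-205-5p (0.26, adjusted p = 0.743, edgeR) and miR-429-3p (−0.63, adjusted p = 0.327, edgeR) did not pass the test. Red blood cell miRNA ranged from 6504 to 13343 RPM in mouse and from 15527 to 32468 RPM in AGO2. In bovine only 2 of the 3 markers were found under the names sought, at 244 to 269 RPM. That sum is not comparable with those of mouse and AGO2, and the paper reports miR-451a-5p in bovine at moderate to high abundance. Leukocyte miRNA ranged from 1232 to 2077 RPM in mouse, 2337 to 2962 in AGO2 and 2367 to 3049 in bovine, and endothelial miRNA from 24194 to 34265, 28819 to 29280 and 55972 to 62356 RPM. The endothelial markers went opposite ways in AGO2 over mouse, miR-126a-5p higher (log2 fold change 1.18) and miR-126a-3p lower (−1.30). Stromal and smooth muscle miRNA lay between 51592 and 69012 RPM in mouse, 32634 and 33471 in AGO2 and 62988 and 77305 in bovine. Only 2 of the 3 markers entered the mouse and AGO2 sums, because miR-145-5p is named miR-145a-5p in mouse and was not matched. These sums are therefore not comparable with the bovine ones. Skeletal muscle miRNA lay between 27.9 and 782 RPM in all 6 libraries, with miR-206-3p at 0 in mouse sample 2. The part of these shifts in the results on let-7 was not tested.

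In the mouse miRNome the 3p arms were rare beside the 5p arms. Together, with the shared sequence counted once, they took 131.2 and 129.3 RPM in mouse samples 1 and 2, a mean of 130.2 ± 1.34 (SD, n = 2), while the 5p arms of the same precursors took 145021 and 91709 RPM. In bulk samples fewer cells that hold a miRNA and less of it per cell cannot be told apart. Most of it came from a pair of sequences. let-7d-3p held 40.9% of the 3p reads of mouse sample 1 (95% Wilson interval 38.2 to 43.7) and 23.2% of those of mouse sample 2 (20.8 to 25.8), and the sequence of let-7a-1-3p and let-7c-2-3p held 35.8% and 53.0%. The order of these leaders thus changed between the samples.

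The AGO2-miRNome held far more 3p reads among its counted reads. The same sum was 8513 and 6721 RPM, a mean of 7617 ± 1268 (SD, n = 2), and the 5p arms took 29405 and 14907 RPM. let-7d-3p alone held 93.3% (93.0 to 93.6) and 91.1% (90.8 to 91.4) of the 3p reads in AGO2 samples 1 and 2. Without let-7d-3p the sum still stood at 569 and 601 RPM in AGO2, above the 77.5 and 99.3 RPM of mouse. The bovine miRNome held 123 and 197 RPM of these arms, a mean of 159.8 ± 51.9 (SD, n = 2), with the 6 arms listed under another species included, and bovine sample 1 lay below and bovine sample 2 above the mouse samples. The 3 bovine members alone (let-7a, g and i-3p) took 49.6 and 44.8 RPM, which does not compare with the mouse sum of 9 sequences. Taken by arm, let-7g-3p and let-7i-3p lay below both mouse samples, and let-7a-3p overlapped with let-7a-1-3p in mouse.

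**Figure D1:**
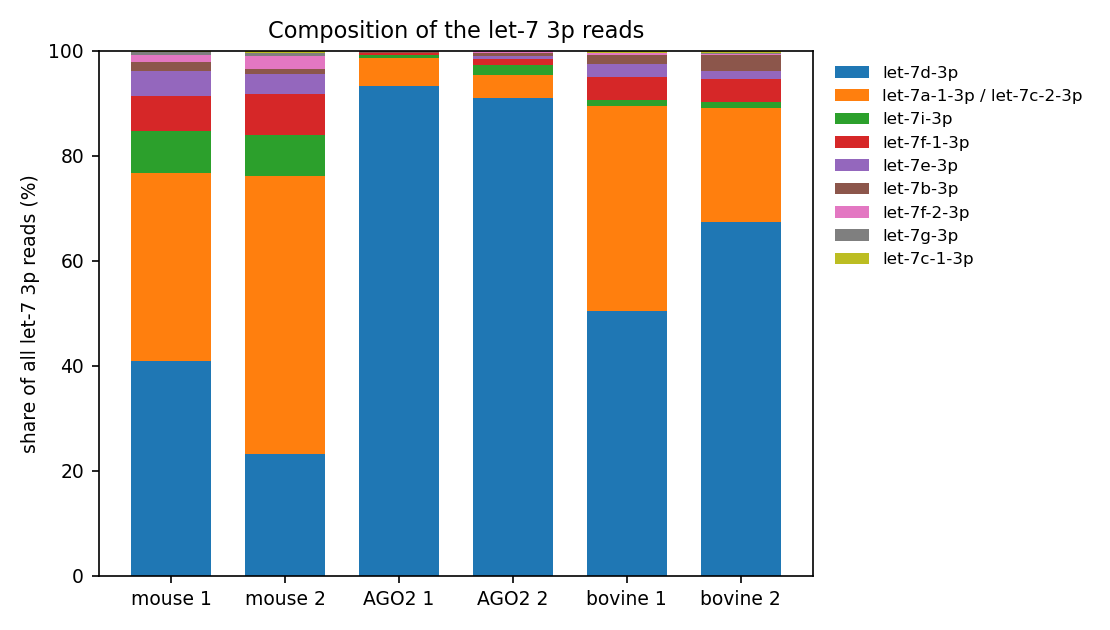
Share of each let-7 3p sequence among all let-7 3p reads (%, y axis) in the 6 libraries (x axis); 1 bar per library, 1 colour per sequence, bovine lines of all prefixes included. let-7d-3p filled 93.3% and 91.1% of the AGO2 bars, against 40.9% and 23.2% in mouse and 50.3% and 67.4% in bovine.

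let-7d-3p, the passenger strand of the last hairpin of the chromosome 13 cluster in the direction of transcription, rose most among the members. It was counted at 53.7 and 30.0 RPM in mouse samples 1 and 2, from 499 and 252 reads, and at 7944 and 6120 RPM in AGO2 samples 1 and 2, from 31056 and 30853 reads. The AGO2 samples lay far above the mouse samples, and in rank it moved from place 182 and 214 among the known mouse miRNA to place 20 and 22. The log2 fold change of AGO2 over mouse was 7.55 ± 0.68 (SE), a 187-fold higher level after TMM normalisation, with an adjusted p of 1.64e-07 in the quasi-likelihood test of edgeR. That p was the lowest of the 299 miRNA tested. The 10 lines with a larger fold change were all predicted miRNA, with at most 4 counts in a mouse library. Its partner let-7d-5p went the other way, from 9089 and 4725 RPM in mouse to 944 and 374 RPM in AGO2 (log2 fold change −3.25 ± 0.60, adjusted p = 0.000543, edgeR).

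The sequence of let-7a-1-3p and let-7c-2-3p, passenger strands of hairpins on chromosomes 13 and 15, was the next in level. It was counted at 47.0 and 68.5 RPM in mouse and at 454 and 286 RPM in AGO2. Both AGO2 samples lay above both mouse samples, and the log2 fold change was 2.81 ± 0.67 (SE; adjusted p = 0.00336, edgeR). Since both lines carry the same counts, they are a single observation, and they do not tell which hairpin gave the reads.

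let-7i-3p, from the chromosome 10 hairpin, was counted at 10.5 and 9.89 RPM in mouse and at 42.5 and 138 RPM in AGO2. The groups did not overlap, but the AGO2 samples lay 3.25-fold apart, and the log2 fold change was 3.32 ± 0.90 (adjusted p = 0.00847, edgeR). let-7b-3p, from the chromosome 15 hairpin, was lower, with 2.15 and 1.43 RPM in mouse and 23.5 and 37.9 RPM in AGO2. Its log2 fold change was 4.26 ± 1.49 (adjusted p = 0.0383, edgeR) on 20 and 12 reads in mouse. let-7i-3p and let-7b-3p passed the count minimum of the test only through AGO2 sample 2, where they were highest, so their calls are not independent of that filter. Neither call held in every fit: without mouse sample 1 the adjusted p was 0.0714 for let-7i-3p and 0.317 for let-7b-3p, and without mouse sample 2 it was 0.0726 and 0.318.

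let-7f-1-3p and let-7e-3p did not pass the test. let-7f-1-3p, the middle hairpin of the chromosome 13 cluster, gave 8.60 and 10.2 RPM in mouse and 30.4 and 72.4 RPM in AGO2, with a log2 fold change of 2.62 ± 1.06 (adjusted p = 0.0684, edgeR, and 0.0171 in DESeq2). let-7e-3p gave 6.34 and 4.77 RPM in mouse and 13.0 and 36.5 RPM in AGO2, with a log2 fold change of 2.34 ± 1.42 (adjusted p = 0.209, edgeR). For both, the mouse samples were close to each other and AGO2 sample 2 lay well above AGO2 sample 1. Only AGO2 sample 2 took them past the count minimum of the test. Without AGO2 sample 1 both were called higher, at an adjusted p of 0.00123 for let-7f-1-3p and 0.00978 for let-7e-3p.

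The 3 rarest arms did not reach the count minimum of the test. let-7f-2-3p gave 1.72 and 3.22 RPM in mouse and 5.37 and 25.0 RPM in AGO2, with no overlap. let-7g-3p, the only member that begins with A, gave 0.968 and 0.596 RPM in mouse and 0 and 3.17 RPM in AGO2. let-7c-1-3p gave 0.215 and 0.596 RPM in mouse and 0 and 2.18 RPM in AGO2. For these last arms the AGO2 samples lay on either side of the mouse samples, and AGO2 sample 1, with 0 reads, allows up to 0.767 RPM, so that no difference was detectable at this depth.

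**Figure D2:**
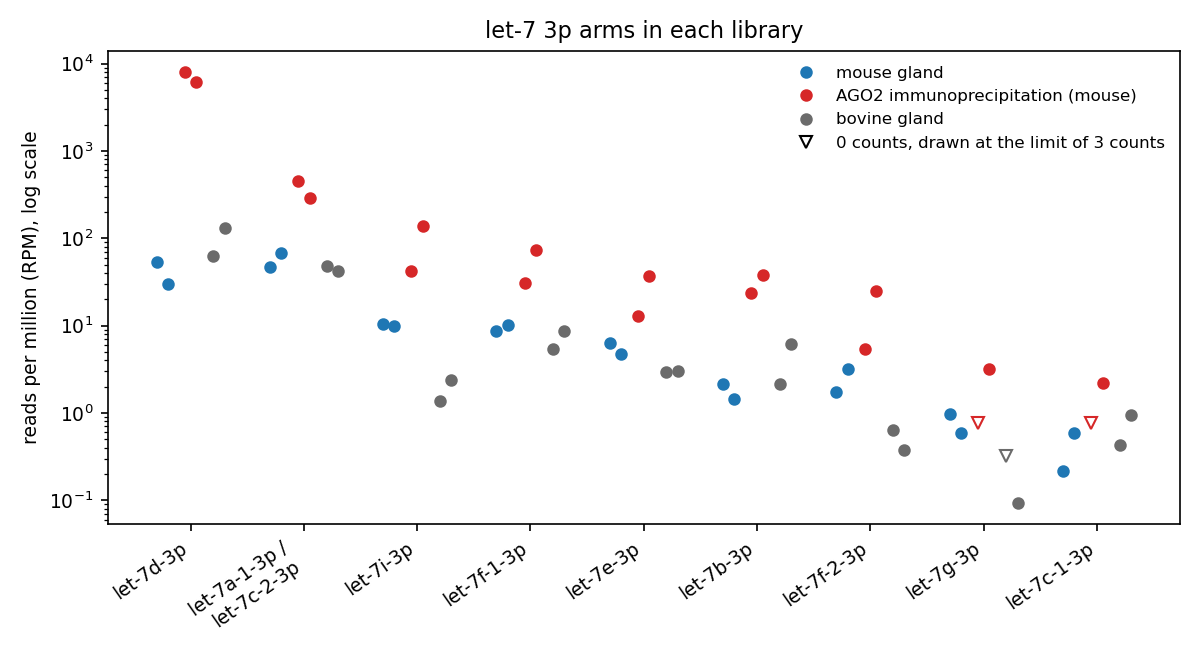
RPM (log axis) of each let-7 3p sequence (x axis) in the 2 mouse, 2 AGO2 and 2 bovine libraries; each point is a library, and open triangles mark 0 counts, drawn at the limit of 3 counts. Both AGO2 points lie above both mouse points for all sequences but let-7g-3p and let-7c-1-3p, and let-7d-3p reaches 7944 and 6120 RPM in AGO2.

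In number, 7 of the 10 members could be tested for AGO2 over mouse, 5 were called higher and 0 lower by edgeR, and 6 higher and 0 lower by DESeq2, and 0 had an unadjusted p under 0.05 for a lower level. In these and all later counts of members in AGO2, the single sequence of let-7a-1-3p and let-7c-2-3p is counted under both names, so the counts exceed the number of separate observations. Of all 299 miRNA tested, 15.4% were called higher and 12.4% lower. let-7b, e, f-1 and i-3p passed the count minimum only through AGO2 sample 2, so that the number of calls among the tested members is not a measure of the family. Leaving out mouse sample 1, mouse sample 2 or AGO2 sample 2 in turn left 3 members called higher each time, and without AGO2 sample 1, 7 were. Both AGO2 samples lay above both mouse samples for 8 of the 10 members, counted over all of them. The same held for 11.2% of the 1750 lines, all of which had at least 1 count in these 4 libraries, and for 31.1% of the 299 lines past the count minimum. Both AGO2 samples lay below both mouse samples for 0 of the 10 members, against 42.1% of the 299 lines.

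The other arms of the family moved in the opposite direction. Of the list of 12 (let-7a, b, c, d, e, f, g, i, j and k-5p, miR-98-5p and miR-98-3p), 10 were tested and all 10 were lower in AGO2, with a median log2 fold change of −2.35. let-7j-5p passed the count minimum only through the mouse samples. let-7g-5p, the most abundant of them in AGO2, gave 22111 and 28853 RPM in mouse and 6850 and 3712 RPM in AGO2 (log2 fold change −2.14 ± 0.44, adjusted p = 0.00127, edgeR). let-7b-5p moved least, at −1.82 ± 0.61 (adjusted p = 0.0318, edgeR), and let-7j-5p most, at −3.50 ± 0.77 (adjusted p = 0.00196, edgeR). All 10 stayed below 0 with DESeq2, with its size factors and with library totals alone, but library totals alone left 8 calls. miR-98-3p, the 3p arm of the nearest relative, was not tested, at 0.215 and 0.596 RPM in mouse and 0 and 5.95 RPM in AGO2.

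**Figure D3:**
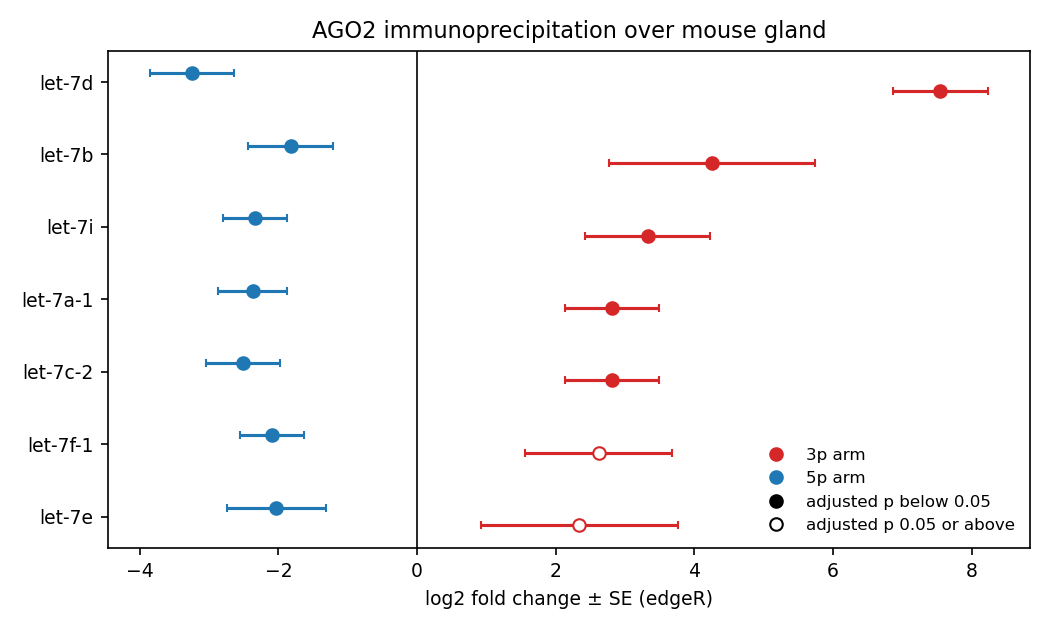
log2 fold change of AGO2 over mouse (x axis, edgeR, with TMM normalisation) for the 3p arm (red) and the 5p arm (blue) of the 7 precursors whose 3p arm was tested (y axis); bars are the SE, filled points have an adjusted p below 0.05. All 3p arms lie above 0 and all 5p arms below it, and let-7d has the widest gap, from 7.55 to −3.25.

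Whether an arm moved against its own gene was tested directly, with the arms of a gene as its features. An arm's value here is the log2 fold change of that arm relative to the log2 fold change of the summed reads of its gene. All 10 members entered this test, among 311 arms, and 7 were called higher than their gene: let-7d-3p by 7.25 (adjusted p = 5.72e-05, edgeR), let-7b-3p by 6.10 (0.0404), let-7i-3p by 5.66 (0.00551), let-7c-2-3p by 5.18 (0.0046), let-7a-1-3p by 5.03 (0.0046), let-7f-2-3p by 4.91 (0.0404) and let-7f-1-3p by 4.72 (0.0189). Of all arms tested, 5.47% were called higher than their gene and 0.965% lower. Among the members called, let-7a-1-3p and let-7c-2-3p are the same sequence with the same counts, and not separate observations. let-7e-3p (4.24, adjusted p = 0.085), let-7c-1-3p (4.02, 0.283) and let-7g-3p (3.41, 0.324) did not pass the test. Among the 5p arms, let-7d-5p was called lower than its gene, by −3.57 on the log2 scale (adjusted p = 0.0046, edgeR). The furthest of the other 5p arms from its gene was let-7e-5p, at −0.18. In those other genes the 5p arm held most of the reads in each library, so its value lies near 0 by construction. It does not show that the arm kept its level: let-7a-5p itself fell by −2.30 in this fit, with a value of −0.16. Most calls needed both mouse samples: without mouse sample 1 or without mouse sample 2, let-7d-3p remained the single arm called of those tested, at an adjusted p of 0.0245 and 0.0255. Without AGO2 sample 1 all 10 members were called higher than their gene, and without AGO2 sample 2, 8 were.

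The same can be read from the share of the 3p arm among the reads of its precursor. let-7d-3p took 0.587% (95% Wilson interval 0.538 to 0.641) and 0.632% (0.558 to 0.714) of the let-7d reads in mouse samples 1 and 2, and 89.4% (89.1 to 89.7) and 94.2% (94.0 to 94.5) in AGO2. It was the only let-7 gene in which the 3p arm outnumbered the 5p arm in a library, from 169 and 157 reads of 5p for each read of 3p in mouse to 0.119 and 0.061 in AGO2. let-7a-1-3p took 0.193% and 0.617% of the let-7a reads in mouse and 10.2% and 11.7% in AGO2, the let-7a-5p reads being those of all let-7a precursors. The same sequence, as let-7c-2-3p, took 0.167% and 0.652% of the let-7c reads in mouse and 9.61% and 13.6% in AGO2. let-7e-3p took 0.455% and 1.34% of the let-7e reads in mouse and 4.85% and 22.5% in AGO2.

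In let-7i, b, f and g the 3p share stayed small in AGO2 too. let-7i-3p took 0.0479% and 0.0539% of the let-7i reads in mouse and 0.894% and 5.14% in AGO2, let-7b-3p 0.0154% and 0.0423% against 0.735% and 2.99%, and let-7f-1-3p 0.0357% and 0.0702% against 0.581% and 2.39%. let-7g-3p lay at 0.00438% and 0.00206% in mouse and at 0% and 0.0854% in AGO2, where a count of 0 beside 26777 reads of 5p allows up to 0.0112%. AGO2 sample 2 was above AGO2 sample 1 in each of these genes. Over all let-7 genes with a member, the 3p share of the let-7 reads was 0.0904% and 0.141% in mouse, 22.5% and 31.1% in AGO2, and 0.0759% and 0.108% in bovine.

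**Figure D4:**
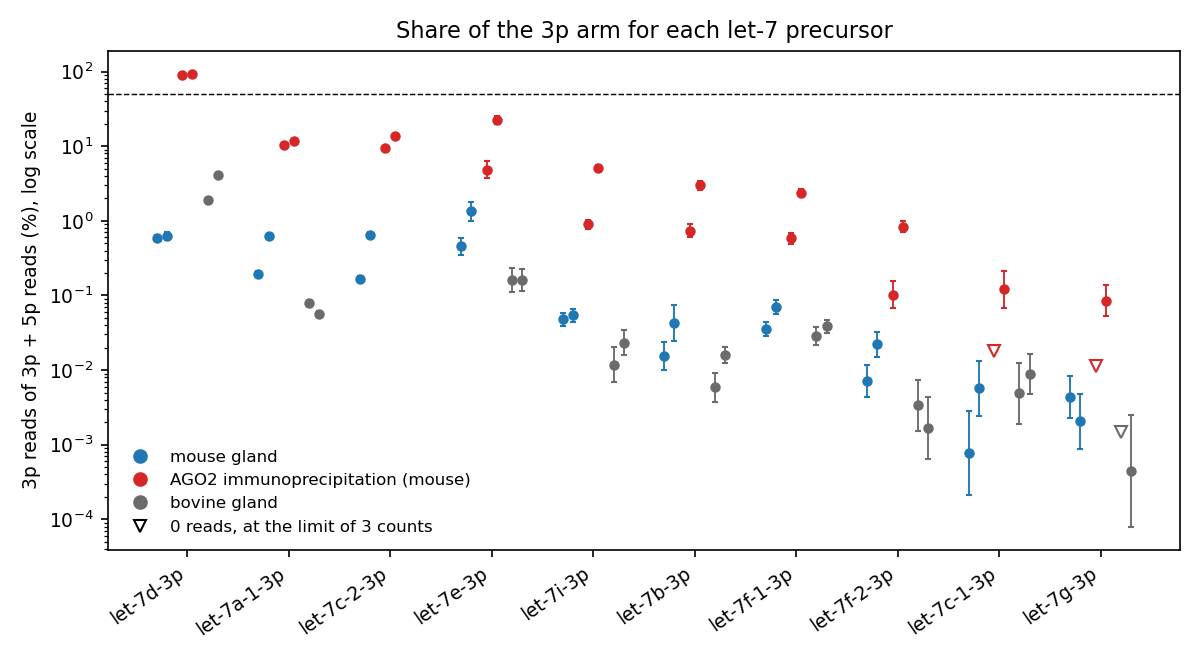
Share of the 3p arm among the 3p and 5p reads of its gene (%, log axis) for each member (x axis) in the 6 libraries; points are libraries, bars the 95% Wilson interval, open triangles mark 0 reads, drawn at the limit of 3 counts, and the dashed line marks equal numbers. let-7d-3p lies above that line in AGO2, at 89.4% and 94.2%, and below 5% in mouse and bovine.

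The 3 arms of the chromosome 13 cluster, which are thought to be cut from a common transcript, did not keep their ratio. Reads of let-7d-3p were 6.24 and 2.93 times those of let-7f-1-3p in mouse, 261 and 84.5 times in AGO2, and 11.4 and 15.3 times in bovine. Against let-7a-1-3p, which also counts reads of let-7c-2, the ratio was 1.14 and 0.438 in mouse, 17.5 and 21.4 in AGO2, and 1.29 and 3.13 in bovine. The ratio of let-7a-1-3p to let-7f-1-3p, in contrast, ran from 3.95 to 14.9 over the AGO2 samples and from 5.46 to 6.69 over the mouse samples, so that the groups overlapped.

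The order of the arms by level also differed between groups. Neighbours in it are called apart where both libraries of the higher arm lay above both of the next. In mouse let-7a-1-3p (57.8 ± 15.2 RPM, SD, n = 2) and let-7d-3p (41.8 ± 16.7) came first and did not differ beyond their spread, followed by let-7i-3p (10.2 ± 0.458) and let-7f-1-3p (9.43 ± 1.16), which did not differ either. In AGO2 let-7d-3p (7032 ± 1290) came before let-7a-1-3p (370 ± 119), in both samples, and let-7i-3p, f-1, b, e and f-2 followed without a gap between neighbours that exceeded their spread. In bovine let-7d-3p (97.3 ± 49.9) and let-7a-3p (45.3 ± 4.09) led, again in this order in both samples, and let-7f-1-3p (7.05 ± 2.29) came next. let-7g-3p and let-7c-1-3p closed the order in mouse and AGO2, and let-7g-3p in bovine.

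For each tested member, the known mouse miRNA with the most similar pattern over the 4 mouse and AGO2 libraries were sought, by the Euclidean distance of centred log2 CPM. Nearest to let-7a-1-3p were miR-181b-2-3p (distance 0.461), miR-16-2-3p (0.463) and miR-381-3p (0.828). Among the neighbours in this paragraph, miR-181b-2-3p was itself called higher than its gene in the test of arms (4.23 on the log2 scale, adjusted p = 0.0189, edgeR). So were miR-1839-3p (6.92, 0.0046), miR-7a-1-3p (4.18, 0.00707), miR-532-3p (3.59, 0.0241), miR-362-3p (3.43, 0.0233) and miR-378a-5p (2.50, 0.0261). The other neighbours that entered that test were not called. The neighbours were chosen by their pattern over these same 4 libraries, so their calls are not independent of that choice. Of all arms tested, 5.47% were called higher than their gene. let-7b-3p was nearest to miR-362-3p (0.662), miR-532-3p (1.03) and miR-1839-3p (1.07), and let-7i-3p to miR-7a-1-3p (0.478), miR-484 (0.533) and miR-532-3p (0.818). let-7f-1-3p was nearest to miR-615-3p (0.242), miR-30b-5p (0.329) and miR-133a-3p (0.351), and let-7e-3p to miR-615-3p (0.554), miR-30c-5p (0.641) and miR-378a-5p (0.664). let-7d-3p had no close neighbour: the nearest, miR-690, lay at 1.82, followed by miR-3470b (1.98) and miR-3470a (2.32). As a background, of 264 genes with 2 listed arms outside let-7, the minor arm was tested in 58, of which 6 were called higher and 3 lower, with a median log2 fold change of 0.14. The minor arm was the one with the lower RPM summed over all 4 libraries. An arm that rose enough in AGO2 to pass its partner was therefore left out, as were genes with more listed arms. This background can thus understate how often minor arms rose in AGO2.

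In bovine over mouse, 2 of the 3p arms passed the test, both lower in bovine, and this comparison used the same mouse libraries as the one with AGO2. The bovine lines matched the mouse sequence in full in 6 of 9 arms, and the other 3 (let-7a, b and f-2) differed only in length at the 3′ end. The matched miRNA tested were 300, of which 28.7% were called higher and 28.7% lower in bovine. Of the members and their bovine counterparts, 6 were tested, 2 were called lower and 0 higher by edgeR and by DESeq2, and 0 had an unadjusted p under 0.05 for a higher level. Of those called, let-7f-2-3p passed the filter only through the mouse samples, so this number is not a measure of the family. Without bovine sample 1 the number called lower was 0, without bovine sample 2 it was 1, and without mouse sample 2 it was 3. Both bovine samples lay below both mouse samples for 3 of these 6 arms, against 33.0% of the matched miRNA tested, and above them for 1, against 48.3%.

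let-7i-3p was counted at 10.5 and 9.89 RPM in mouse and at 1.38 and 2.36 RPM in bovine. The groups were far apart, with a log2 fold change of −2.82 ± 0.51 (SE; adjusted p = 0.00404, edgeR), and let-7i-5p was lower as well (−1.29 ± 0.28, adjusted p = 0.00762, edgeR). Without bovine sample 1 the adjusted p of let-7i-3p was 0.0549. let-7f-2-3p was counted at 1.72 and 3.22 RPM in mouse and at 0.638 and 0.377 RPM in bovine, from 6 and 4 reads (log2 fold change −2.64 ± 0.74, adjusted p = 0.0198, edgeR), while let-7f-5p was not called (−0.31 ± 0.35, adjusted p = 0.468, edgeR). let-7f-2-3p passed the filter of this test only through the mouse samples, where it was higher, so its call is not independent of that filter. Its call was lost without either bovine sample, at an adjusted p of 0.195 and 0.294.

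let-7d-3p was counted at 53.7 and 30.0 RPM in mouse and at 62.0 and 133 RPM in bovine. Both bovine samples lay above both mouse samples, but the log2 fold change of 0.82 ± 0.54 did not pass the test (adjusted p = 0.222, edgeR), and bovine sample 2 was 2.14 times bovine sample 1. Without mouse sample 1 the arm was called higher, at a log2 fold change of 1.49 (adjusted p = 0.0485, edgeR). let-7d-5p was lower in bovine (−1.54 ± 0.42, adjusted p = 0.0181, edgeR), so that the 3p share of the let-7d reads was 1.89% and 4.05% in bovine, above the mouse shares given before. This difference of shares was not tested.

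The remaining arms did not pass the test or were not tested. let-7e-3p gave 2.98 and 3.01 RPM in bovine, below both mouse samples (log2 fold change −1.29 ± 0.49, adjusted p = 0.0591, edgeR, and 0.00918 without mouse sample 2), let-7f-1-3p 5.42 and 8.67 RPM (−0.80 ± 0.45, adjusted p = 0.17) and let-7b-3p 2.13 and 6.12 RPM (0.82 ± 0.72, adjusted p = 0.347). let-7a-3p, at 48.2 and 42.4 RPM, overlapped with let-7a-1-3p in mouse. let-7c-3p gave 0.425 and 0.942 RPM, and let-7g-3p 0 and 1 read, with a limit of 0.319 RPM where none was counted.

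**Figure D5:**
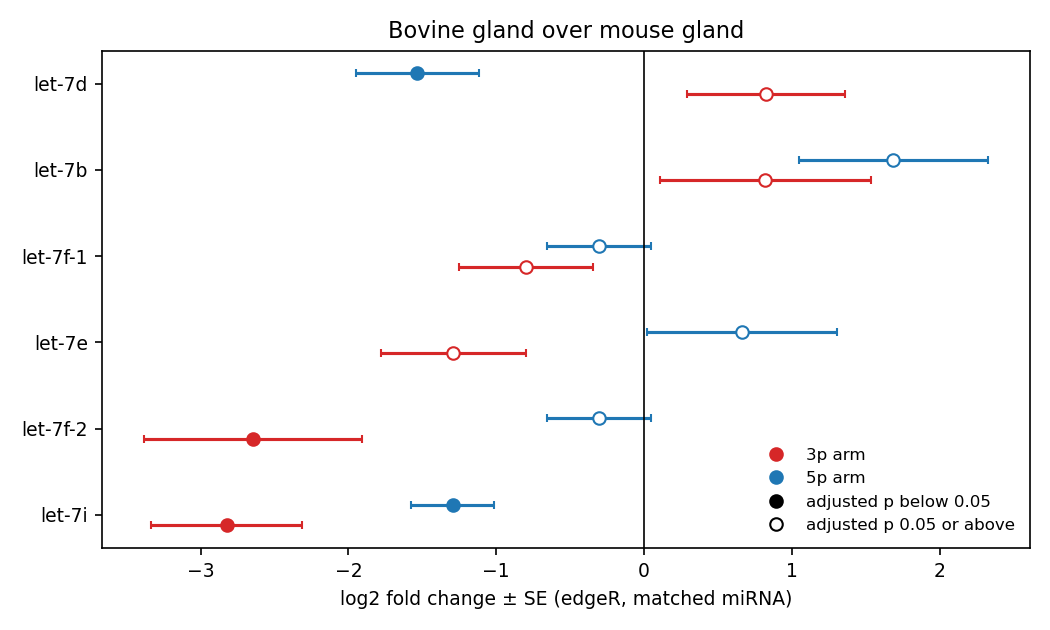
log2 fold change of bovine over mouse (x axis, edgeR on matched miRNA, with TMM normalisation) for the 3p arm (red) and the 5p arm (blue) of the 6 precursors whose 3p arm was tested (y axis); bars are the SE, filled points have an adjusted p below 0.05, and let-7f-5p is drawn for both let-7f precursors. let-7i-3p, at −2.82, and let-7f-2-3p, at −2.64, are the 3p arms called lower.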

How the data were processed

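Small RNA was poly(A)-tailed, ligated at the 5′ end and sequenced on an Illumina HiSeq. The authors trimmed poly-A ends, retained lengths from 17 to 28 nt, ran the miRDeep2 quantifier on precursors of miRBase 20 and predicted ones, and deposited raw counts per mature miRNA (a second, normalised column was not used). Builds named in the submitters' processing notes are GRCm38 (mm10) and UMD3.1. Lines of identical sequence carry identical counts. In AGO2 sample 2 many low-count reads were dropped during that processing, per the study.

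RPM were computed over the library totals. The tests used edgeR 4.0.16 (R 4.3.3) on the deposited counts (TMM factors, quasi-likelihood F test, Benjamini-Hochberg adjusted p below 0.05; SE as the log2 fold change over the square root of F). For AGO2 over mouse, lines whose highest count passed the study's minimum of 175 were tested; for bovine over mouse, lines matched by name, and by sequence where the bovine name lacks a copy number, that passed filterByExpr, which left bovine let-7a-3p unmatched. Arm use was tested with diffSpliceDGE, on genes with at least 2 arms that each summed to at least 10 counts and with an arm past that minimum. Named miRNA are the members, the 12 other arms of the family and, for each tested member, the 3 nearest known miRNA by log2 CPM (prior count 2). The members and lists were chosen with earlier results of these data known. Scripts were tested on simulated data. Alternatives were DESeq2 1.42.0, other scalings, filters and matchings, identical sequences counted once and each library left out. Prediction lists were not used. Annotation was that of GENCODE M21 and RefSeq; Python 3.11.15 and matplotlib 3.10.9 were used.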

Additional observations from a re-analysis of the deposited data

How the results depend on the processing

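Where leaving out a library left a group with 1, that library is taken to vary like the other group. In AGO2 over mouse, let-7d-3p was called higher in 11 of 11 fits, with log2 fold changes from 7.17 to 7.97, and let-7a-1-3p in 11 of 11, from 2.53 to 3.19. let-7b-3p was called in 6 of 10 fits and let-7i-3p in 7 of 10. With no filter on counts, 29 miRNA and 3 of the members were called higher. Leaving out 1 library gave 31 to 62 miRNA called higher and 21 to 33 lower, with 3 to 7 members called higher and 0 lower. In the test of arms these ranges were 1 to 53 higher and 0 to 31 lower, with 1 to 10 members higher, and let-7g-3p lay between −3.77 (without AGO2 sample 2) and 4.78. In bovine over mouse, a minimum of 100 RPM left 45 miRNA called higher, 45 lower and 0 members, and matching by identical sequence gave 39 and 49. Leaving out 1 library gave 42 to 124 miRNA higher and 50 to 113 lower, with 0 to 1 members higher and 0 to 3 lower; the log2 fold change of let-7b-3p lay between −0.37 and 1.33 and that of let-7d-3p between −0.046 and 1.49, both lowest without bovine sample 2. The causes of these changes were not tested beyond the fewer miRNA or libraries that each fit used. DESeq2's size factors shifted the median log2 fold change of all miRNA by 0.11 in either comparison, and library totals alone by −0.15 for AGO2 and 0.41 for bovine; no member changed direction under them.

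Counting the shared sequence for each of its lines raised the 3p sum in mouse to 188 RPM and its share to 0.169%, and TMM-normalised CPM gave a sum of 124 in mouse. With only the bovine lines of a mouse or bovine prefix, an alternative chosen after seeing the data, the bovine sum was 47.2 RPM and the share 0.0276%. Leaving out 1 library gave sums of 129.3 to 131.2 RPM in mouse, 6721 to 8513 in AGO2 and 123 to 197 in bovine, and shares of 0.0904% to 0.141%, 22.5% to 31.1% and 0.0759% to 0.108%. Matching bovine let-7a-3p by the shared 5′ end, also chosen after seeing the data, changed no call of a member. With bta- lines only, no member was left to test, and with identical sequences counted once let-7c-2-3p had no line. No paired analysis was possible because the sources used here do not say which AGO2 and mouse samples share an animal, and the sample numbers only name samples. With 2 libraries a group, depth limits what can be said of let-7c-1, f-2 and g-3p, which had at most 27 counts in a mouse library.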
